A study of Mus musculus with 186 samples.

Results

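Kainate receptors are glutamate-gated ion channels built from the subunits encoded by Grik1 to Grik5, and Neto1 and Neto2 encode the auxiliary transmembrane proteins that bind them. These 7 genes were taken by name from a table of 28338 genes, and all 7 were found. Their RNA levels were followed over 6 brain regions, 2 ages and 3 Akap11 genotypes. Akap11 encodes an anchoring protein that holds protein kinase A at defined places in the cell. The groups were wild type (WT, 63 libraries), Akap11 +/- (HET, 63 libraries) and Akap11 -/- (KO, 60 libraries), all from bulk tissue of mice aged 4 weeks (96 libraries) or 12 weeks (90 libraries). The dissected regions were striatum (STR), thalamus (TH), hippocampus (HP), substantia nigra (SN) and 2 areas of cortex, prefrontal (PFC) and somatosensory (SSC), taken from frozen brain. Each of the 36 groups held 5 or 6 libraries. The sources used here do not give the strain, the sex, the design of the Akap11 allele or whether each library came from its own animal. The p-values below therefore measure the spread between these libraries, which may be technical in part. In bulk tissue, fewer cells of a type and less RNA per cell cannot be told apart.

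GRIK1, GRIK2 and GRIK3 can form channels by themselves, and GRIK4 and GRIK5 bind glutamate with high affinity but need one of the former group to make a working channel. The NETO proteins change how fast kainate receptors close and recover and how they are placed at synapses. Kainate receptors act on both sides of the synapse. In hippocampus they are known from the mossy fibre synapses onto CA3 pyramidal cells, and in striatum GRIK2 is known from projection neurons.

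Promoter sequence was available from RefSeq (GRCm38.p6) for 5 of the 7 genes, and not for Grik1 and Neto1. The 250 bases before the start are shown for the 3 genes called lower in KO than in WT striatum (Grik2, Grik3 and Neto2). Those of Grik5, the gene called most often between the ages, are also shown. The windows are written 5′ to 3′ on the strand of the gene, with matches to the GC box GGGCGG on either strand in capitals.
Grik2, chr10:49788755-49789004, minus strand: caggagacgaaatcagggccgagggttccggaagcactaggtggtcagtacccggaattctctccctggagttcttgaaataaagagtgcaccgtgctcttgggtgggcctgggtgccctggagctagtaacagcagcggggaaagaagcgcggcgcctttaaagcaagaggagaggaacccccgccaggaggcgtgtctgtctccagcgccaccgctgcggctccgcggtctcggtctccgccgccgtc
Grik3, chr4:125490446-125490695, plus strand: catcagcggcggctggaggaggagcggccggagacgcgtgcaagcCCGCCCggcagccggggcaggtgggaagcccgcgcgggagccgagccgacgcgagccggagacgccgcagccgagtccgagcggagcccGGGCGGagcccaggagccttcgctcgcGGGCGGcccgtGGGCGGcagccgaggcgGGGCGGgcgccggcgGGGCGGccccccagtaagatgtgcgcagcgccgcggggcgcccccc
Grik5, chr7:25072370-25072619, minus strand: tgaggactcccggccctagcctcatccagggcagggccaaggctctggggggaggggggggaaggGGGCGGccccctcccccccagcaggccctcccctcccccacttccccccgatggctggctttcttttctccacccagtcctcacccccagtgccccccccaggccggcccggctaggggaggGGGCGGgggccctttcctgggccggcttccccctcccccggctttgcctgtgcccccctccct
Neto2, chr8:85700925-85701174, minus strand: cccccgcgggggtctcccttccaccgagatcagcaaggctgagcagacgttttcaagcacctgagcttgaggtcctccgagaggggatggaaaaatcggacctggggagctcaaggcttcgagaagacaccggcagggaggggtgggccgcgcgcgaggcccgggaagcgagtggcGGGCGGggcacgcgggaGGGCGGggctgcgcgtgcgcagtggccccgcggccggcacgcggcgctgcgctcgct
The Grik3 window held 6 GC boxes at a GC content of 82%, and those shown for Grik5 and Neto2 held 2 each at 75.2% and 72%. RefSeq gives another Neto2 promoter (chr8:85691010-85691259), not shown, whose window held 0 GC boxes at 42.4%. The Grik2 window held 0 at 62.8%. The GC box was found in 32.7% of 32851 RefSeq promoters of the same length, whose median GC content was 52.4%. The cAMP response element TGACGTCA (1.55% of promoters), its core TGACG (17.8%), the EGR motif GCGTGGGCG (0.536%) and the E-box CACGTG (6.02%) were each searched on both strands and had 0 matches in any of these windows. A match or its absence describes these letters in this window and no more.

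On GRCm38, by GENCODE M21, the minus strand carries Grik1 (chromosome 16, 87895900 to 88290265) and Grik2 (chromosome 10, 49094833 to 49788766). Grik4 (chromosome 9, 42518135 to 42944493), Grik5 (chromosome 7, 25009849 to 25072346) and Neto2 (chromosome 8, 85636588 to 85700924) are also minus-strand genes. The plus strand carries Grik3 (chromosome 4, 125490700 to 125714173) and Neto1 (chromosome 18, 86394952 to 86506718). Antisense or intronic genes overlap several of them, and the sources used here do not say whether the counting used the strand. The one overlapping gene that the table also holds, Gm26543 inside Grik2, averaged 2.95 counts per library, against at least 436 counts of Grik2 in every library.

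All 7 genes were detected in all 186 libraries, at totals of 20794652 to 73344445 expected counts per library (median 45068701). The lowest count of a member in any library was 54, for Grik1. Levels are given as CPM, counts scaled to a common library size, with TMM factors over all libraries. In KO libraries Akap11 stood at 5.08% to 7.98% of WT and was called lower in 12 of 12 comparisons, with no overlap in 12. One library went against its label: the 4-week SN library labelled WT 92 held 44.8 CPM of Akap11, against 197 to 245 in the other WT libraries of its group. Several 4-week libraries also stood apart in cell type markers. The STR libraries KO 51, KO 161, KO 163 and WT 92 held 738 to 1541 CPM summed over 8 cortical excitatory neuron markers, and the other 4-week STR libraries held 17.3 to 133 CPM. All 8 of these markers were above every one of those other libraries in each of the 4, and 0 were at 0. The TH libraries WT 913, WT 914 and WT 23 had low thalamic marker scores, and the SN libraries labelled WT 42, WT 92, KO 44 and KO 91 had low dopamine neuron scores. Results were recomputed without these libraries.

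The regional levels in WT tissue are described first. Grik2, Neto1 and Neto2 stood highest in striatum, Grik4 in hippocampus and Grik1 in thalamus, while Grik1 and Grik4 were lowest in striatum. Each region was tested against the mean of the other 5. At 4 weeks 30 of 42 tests of members were called (14 higher, 16 lower), against 46.3% of all tests of genes at that age. At 12 weeks 37 of 42 were called (20 higher, 17 lower), against 61.6%. All p-values here and below are edgeR quasi-likelihood p-values with Benjamini-Hochberg adjustment over all genes tested, called below 0.05.

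**Figure D1:**
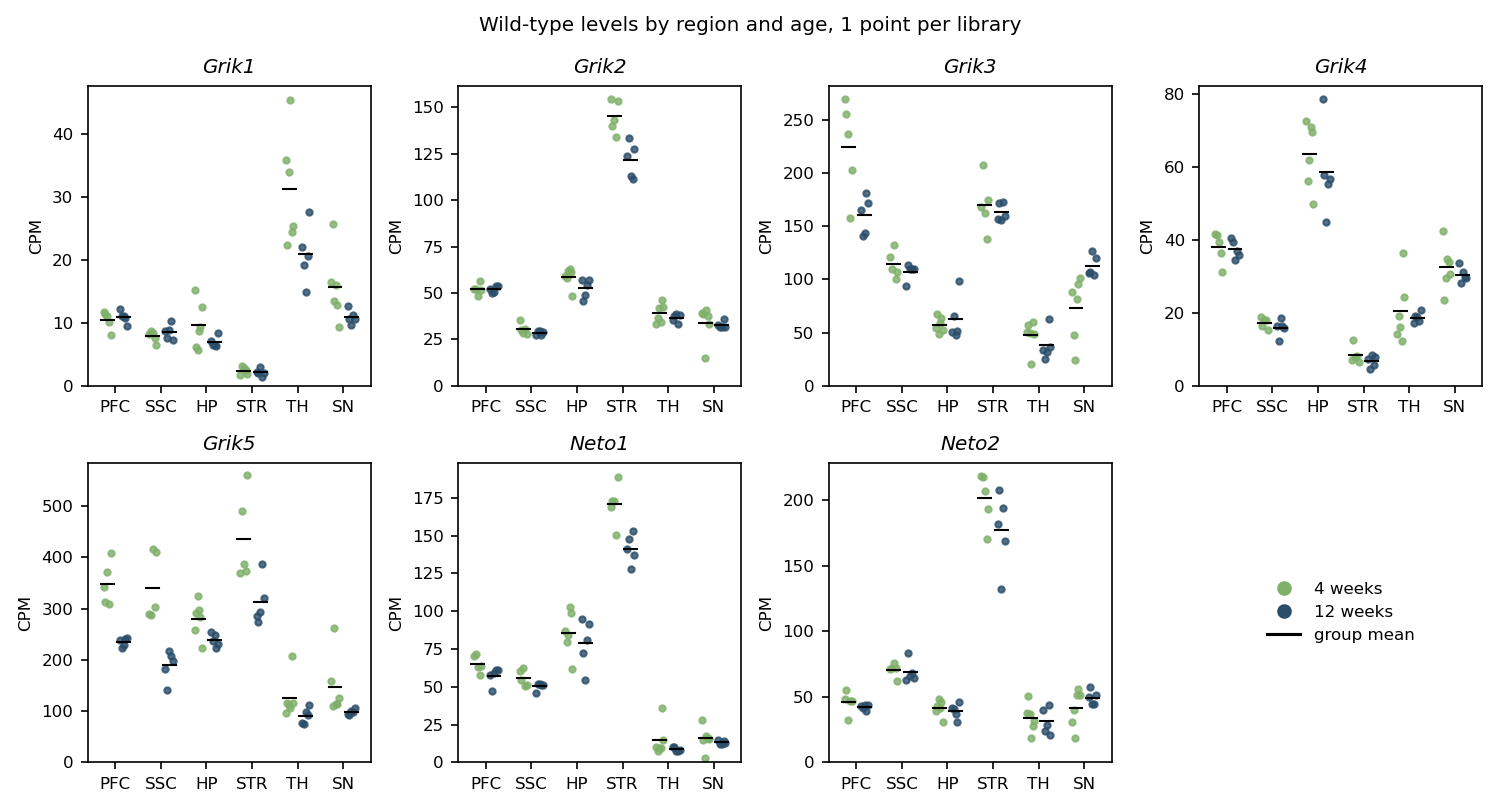
CPM of each gene in WT libraries by region at 4 and 12 weeks, with 1 point per library and a bar at the group mean. Striatum holds the highest Grik2, Neto1 and Neto2 levels and the lowest Grik1 and Grik4 levels at both ages.

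Grik2, the subunit of many forebrain kainate receptors, measured 145 ± 8.78 CPM in WT striatum at 4 weeks (SD, n = 5; range 134 to 154) and 122 ± 9.53 CPM at 12 weeks (n = 5; 111 to 134). Hippocampus followed at 58.5 ± 5.29 CPM (n = 6) and 52.6 ± 5.01 CPM (n = 5), and somatosensory cortex was lowest at 30.5 ± 2.89 and 28.7 ± 0.99 CPM (n = 5). No striatal library overlapped with a library of another region. The difference of striatum from the mean of the others was 1.83 ± 0.11 on the log2 scale (SE) at 4 weeks (adjusted p = 3.04e-15) and 1.65 ± 0.04 at 12 weeks (5.62e-24). The neighbours hippocampus and PFC did not pass the test of their difference at either age (adjusted p = 0.437 and 0.76).

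Grik1 was highest in thalamus and lowest in striatum. It stood at 31.3 ± 8.83 CPM in thalamus at 4 weeks (SD, n = 6; 22.4 to 45.5) and 20.9 ± 4.58 at 12 weeks (n = 5; 15 to 27.6). In striatum it was 2.45 ± 0.66 and 2.18 ± 0.58 CPM (n = 5). Thalamus exceeded the mean of the other regions by 1.98 ± 0.16 (log2, SE; adjusted p = 1.46e-11) and 1.59 ± 0.10 (1.04e-14), and striatum fell below it by -2.39 ± 0.23 and -2.30 ± 0.14 (4.06e-10 and 4.61e-15). Substantia nigra came second, at 15.7 ± 5.52 CPM (n = 6) and 11.0 ± 1.13 CPM (n = 5). At 12 weeks it did not differ from PFC beyond the spread (adjusted p = 0.957).

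Grik3 was high in 2 places. At 4 weeks it measured 224 ± 44.9 CPM in PFC and 170 ± 25 in striatum (SD, n = 5), which did not pass the test against each other (adjusted p = 0.246). At 12 weeks striatum stood at 164 ± 8.26 and PFC at 161 ± 17.7 CPM (n = 5; adjusted p = 0.825). Thalamus was lowest at 47.8 ± 14 (n = 6) and 38.0 ± 14.4 CPM (n = 5). The SN level was 73.1 ± 30.4 CPM at 4 weeks (n = 6) and 113 ± 10.003 at 12 weeks (n = 5). SN was called lower than the other regions at 4 weeks (-0.54 ± 0.19, adjusted p = 0.0159), and without the library labelled WT 92 it was not (-0.33, 0.0685).

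Grik4, a high-affinity subunit, peaked in hippocampus at 63.4 ± 9.15 CPM at 4 weeks (SD, n = 6; 49.7 to 72.5) and 58.6 ± 12.2 at 12 weeks (n = 5; 45 to 78.4). The differences from the mean of the other regions were 1.61 ± 0.13 and 1.64 ± 0.08 (log2, SE; adjusted p = 8.05e-11 and 4.32e-16). PFC came next at 37.9 ± 4.31 and 37.4 ± 2.52 CPM (n = 5), below hippocampus at both ages (adjusted p = 0.00416 and 4.52e-05). Striatum held 8.49 ± 2.44 and 6.86 ± 1.54 CPM (n = 5).

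Grik5, the other high-affinity subunit, was less confined to one region. At 12 weeks it ranged from 312 ± 45.3 CPM in striatum (SD, n = 5) to 91.3 ± 15.2 in thalamus (n = 5), with SN at 98.2 ± 5.82 (n = 5). At 4 weeks striatum (436 ± 85.8), PFC (349 ± 42.2) and SSC (341 ± 66.1 CPM, n = 5 each) did not pass the tests between neighbours (adjusted p = 0.17 and 0.984). TH and SN were the lowest pair at both ages and did not differ beyond their spread (adjusted p = 0.483 and 0.389).

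The auxiliary genes both peaked in striatum and parted in the other regions. Neto1 stood at 171 ± 13.9 CPM in striatum at 4 weeks and 141 ± 9.79 at 12 weeks (SD, n = 5), 2.22 ± 0.22 and 2.23 ± 0.07 above the mean of the others (log2, SE; adjusted p = 6.36e-10 and 1.81e-21). It was 85.7 ± 14.7 (n = 6) and 79.0 ± 16.2 CPM (n = 5) in hippocampus and no more than 15.8 ± 7.81 CPM (n = 6) in SN or TH. Neto2 stood at 201 ± 20 and 177 ± 28.9 CPM in striatum (n = 5), 2.19 ± 0.15 and 2.00 ± 0.10 above the others (7.58e-14 and 5.87e-17). Its next region was SSC at 70.5 ± 4.90 and 69 ± 8.42 CPM (n = 5), and its lowest was TH at 33.9 ± 10.9 (n = 6) and 31.4 ± 10.2 (n = 5). Neto1 varied 19.6-fold over the 12 WT group means and Neto2 6.41-fold.

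Over all 15 pairs of regions, 75 of 105 tests of members were called at 4 weeks, against 45.6% of all such tests of genes. At 12 weeks 92 of 105 were called, against 61.1%. Between neighbours in a gene's order of levels, 14 of 35 tests were called at 4 weeks and 22 of 35 at 12 weeks. Neighbours were picked by the order of these same levels, and no such count was made over all genes. The shares of all 15 pairs therefore do not apply to these counts.

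Levels of different genes were compared only per kilobase of the longest annotated transcript. On that scale the Grik5 share of the summed Grik level in WT tissue ran from 49.9% in SN at 12 weeks to 80.0% in SSC at 4 weeks. Grik1 took 16.3% in TH at 4 weeks and 0.47% in STR. Grik4 took 11.3% in HP and 1.00% in STR at 4 weeks. Grik2 reached its largest share, 11.8%, in STR at 12 weeks, and Grik3 its largest, 26.0%, in SN at 12 weeks. The lengths assume that the longest transcript stands for the gene. With all exons of a gene joined, the Grik5 share ran from 46.6% to 77.6% and Grik1 took 11.4% in TH at 4 weeks. In 4-week striatum the auxiliary genes stood at 20.5 CPM per kilobase (Neto1) and 35.9 (Neto2), against 15.4 for Grik2 and 107 for Grik5.

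**Figure D2:**
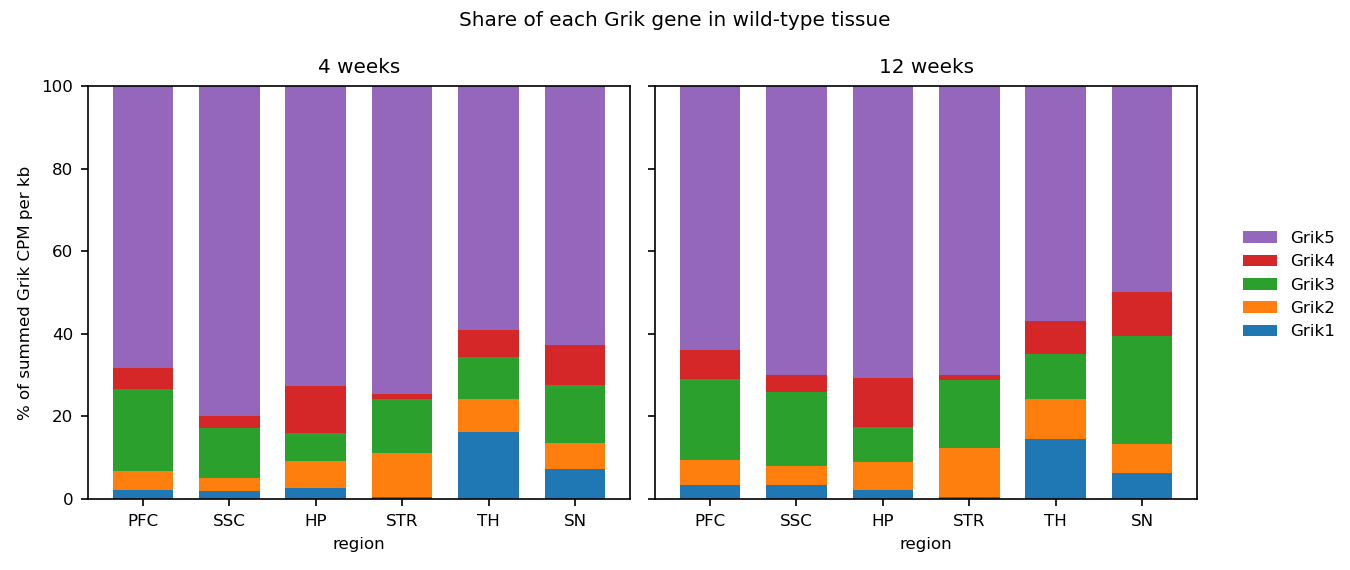
Share of each Grik gene in the summed CPM per kilobase of the 5 Grik genes (percent, longest transcript), by region in WT tissue at 4 and 12 weeks. Grik5 takes between 49.9% and 80.0% of every bar, and the Grik1 segment is widest in TH.

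Over the 12 WT group means of log2(CPM + 1), the genes whose pattern was most like each member were listed among 12206 genes, as a description. For Grik1 they were Fndc4, Mreg and Adgra1 (Pearson r = 0.967, 0.967 and 0.966). For Grik2 they were Plppr1, Rybp and Sez6 (0.978, 0.976 and 0.975), and for Grik3 Il1rapl2, Rbp4 and Golgb1 (0.973, 0.964 and 0.959). Grik4 was most like Slc39a6, Galns and Zfpm2 (0.981, 0.976 and 0.963), and Grik5 most like Trim46, Wwc2 and Prrc2a (0.984, 0.984 and 0.974). Neto1 was most like Sowaha, Ccnd2 and Ryr1 (0.992, 0.990 and 0.986). Neto2 was most like Ppp1r1b, which encodes DARPP-32 of striatal projection neurons, and then Ivns1abp and Socs5 (0.977, 0.971 and 0.971). The points share regions, so these values carry no test.

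The comparison of KO with WT asked where loss of Akap11 went with a change in these genes. Of 84 tests (7 genes in 12 sets of region and age), 3 were called, all lower in KO and all in striatum: Grik2 at 4 weeks, and Grik3 and Neto2 at 12 weeks. In 4-week striatum this is 1 of 7 members, against 3.35% of all genes called and 1.75% called lower. In 12-week striatum it is 2 of 7, against 4.42% called and 2.6% called lower. The median absolute log2 change of the 7 was 0.41 at 4 weeks and 0.24 at 12 weeks, and that of all genes tested 0.12 and 0.10. Without the striatal libraries that stand apart, the 4-week values of the 7 ran from -0.40 (Grik4) to 0.14 (Neto1), and 5 of the 7 changed sign. In the other 5 regions 0 of 70 tests were called, where 0.018% of all tests were, and DESeq2 called 0 of the 70. An unadjusted edgeR p under 0.05 was found in 14 of the 70. Over all genes tested in a set, that number ran from 479 of 16438 (12-week HP) to 2415 of 15970 (4-week PFC).

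**Figure D3:**
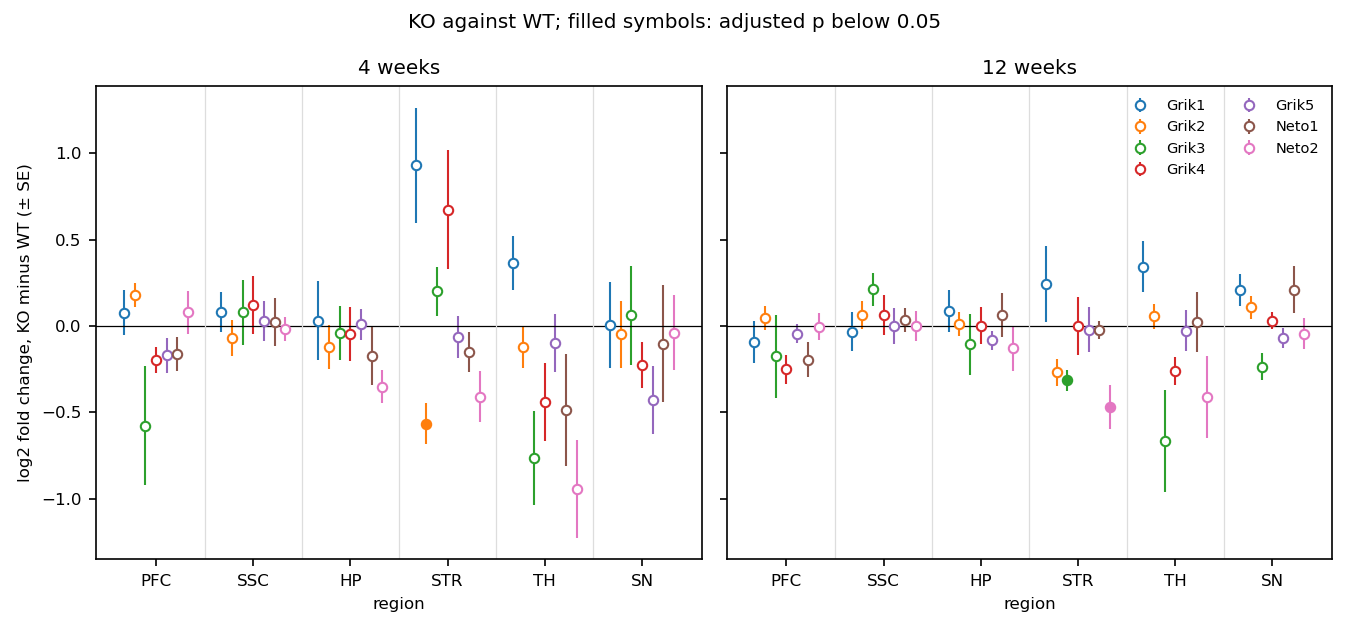
Log2 fold change of KO against WT with its standard error for the 7 genes in each region, at 4 weeks (left) and 12 weeks (right). Filled symbols passed an adjusted p of 0.05, and the 3 of them lie in striatum below 0.

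In 4-week striatum Grik2 measured 134, 140, 143, 153 and 154 CPM in the WT libraries, 120, 122, 139, 149 and 150 in HET and 74.4, 84.3, 91.7, 113 and 127 in KO. Every KO library lay below every WT library, and the HET range overlapped both. The mean fell from 145 ± 8.78 to 98.0 ± 21.4 CPM (SD, n = 5), a log2 change of -0.57 ± 0.12 (SE; adjusted p = 0.0155), or 67.6% of WT. The 3 lowest values belonged to KO 161, KO 51 and KO 163, the KO libraries with high cortical markers. Their summed striatal projection neuron markers were 4985, 5351 and 7652 CPM, against 8332 to 16222 in the other 4-week striatal libraries. WT 92, which also had high cortical markers (834 CPM), held 12268 CPM of the striatal markers and 140 CPM of Grik2. KO 932 and KO 12, at 113 and 127 CPM, had cortical marker sums of 22.2 and 17.3 CPM, at the low end of the libraries that do not stand apart. With the cortical score as a covariate the change was -0.43 (adjusted p = 0.00449). Without the 4 libraries that stand apart, which leaves 2 KO libraries, it was -0.30 (0.157), and with only the KO and WT libraries in the fit the adjusted p was 0.0659.

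At 12 weeks no striatal library stood apart, with cortical marker sums of 13.0 to 19.2 CPM in WT and 18.5 to 24.3 in KO. The 8 striatal projection neuron markers summed to 10150 ± 1510 CPM over the WT libraries, 9895 ± 893 over HET and 8672 ± 924 over KO (SD, n = 5), and the KO mean was below the WT mean for 8 of 8, at 85.4% of WT in sum. The part of these markers in the Grik2, Grik3 and Neto2 values at 12 weeks was not tested. Grik2 measured 111, 113, 124, 127 and 134 CPM in WT, 116, 124, 130, 138 and 152 in HET and 87.2, 101, 106, 106 and 109 in KO. Every KO library lay below every WT and every HET library. The difference from WT was -0.27 ± 0.08 (log2, SE), or 83.0% of WT, and missed the threshold (adjusted p = 0.0713). DESeq2 gave an adjusted p of 0.0243. With the replicate number as a block in the edgeR fit the difference was also called, as given in the section on the processing. The Grik2 difference therefore has the same sign at both ages, and whether it was called against WT depended on the settings of the fit at both ages.

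Grik3 fell in 12-week striatum, where it measured 156, 157, 160, 172 and 173 CPM in WT, 139, 154, 158, 158 and 165 in HET and 117, 122, 136, 141 and 147 in KO. No KO library reached the lowest WT library, and KO and HET overlapped. The mean went from 164 ± 8.26 to 133 ± 12.6 CPM (SD, n = 5), a log2 change of -0.31 ± 0.06 (SE; adjusted p = 0.00548), or 80.5% of WT. The call held in all the alternatives run, with adjusted p from 0.0050 to 0.02 when each library was left out. At 4 weeks Grik3 measured 195 ± 51.1 CPM in KO and 170 ± 25 in WT (n = 5; 0.20 ± 0.14, adjusted p = 0.5), with the 276 CPM of KO 161 and the 204 of KO 51 as the highest KO values. Without the libraries that stand apart it was -0.09 (0.625).

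Neto2 in 12-week striatum measured 132, 169, 182, 194 and 208 CPM in WT, 116, 174, 182, 186 and 193 in HET and 110, 124, 125, 138 and 148 in KO. The ranges overlapped, since WT 3 lay at 132 CPM within the KO range. The change was -0.47 ± 0.13 (log2, SE; adjusted p = 0.0493), or 72.3% of WT. The call was lost without any one of 9 of the 10 libraries, with adjusted p up to 0.138 without WT 2, and was stronger without WT 3 (0.0118). It was also lost with the cortical score as a covariate (-0.43, 0.0977). The summed striatal projection neuron markers lay between 7299 and 9610 CPM in KO and between 7785 and 11352 in WT. The lowest sums fell in KO 2 (7299), WT 3 (7785), KO 5 (8209) and HET 1 (8323), which held 138, 132, 124 and 116 CPM of Neto2. The lowest Neto2 value, 110 CPM, was in KO 1 (sum 8985), and KO 4, with the highest KO sum (9610), held 125 CPM. The 4-week means of Neto2 were 152 ± 44.9 CPM for KO libraries and 201 ± 20 for WT libraries (SD, n = 5; -0.41 ± 0.15, adjusted p = 0.145). KO 12 held 222 CPM and the 3 KO libraries with high cortical markers 111 to 136. Without the libraries that stand apart the 4-week change was -0.03.

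**Figure D4:**
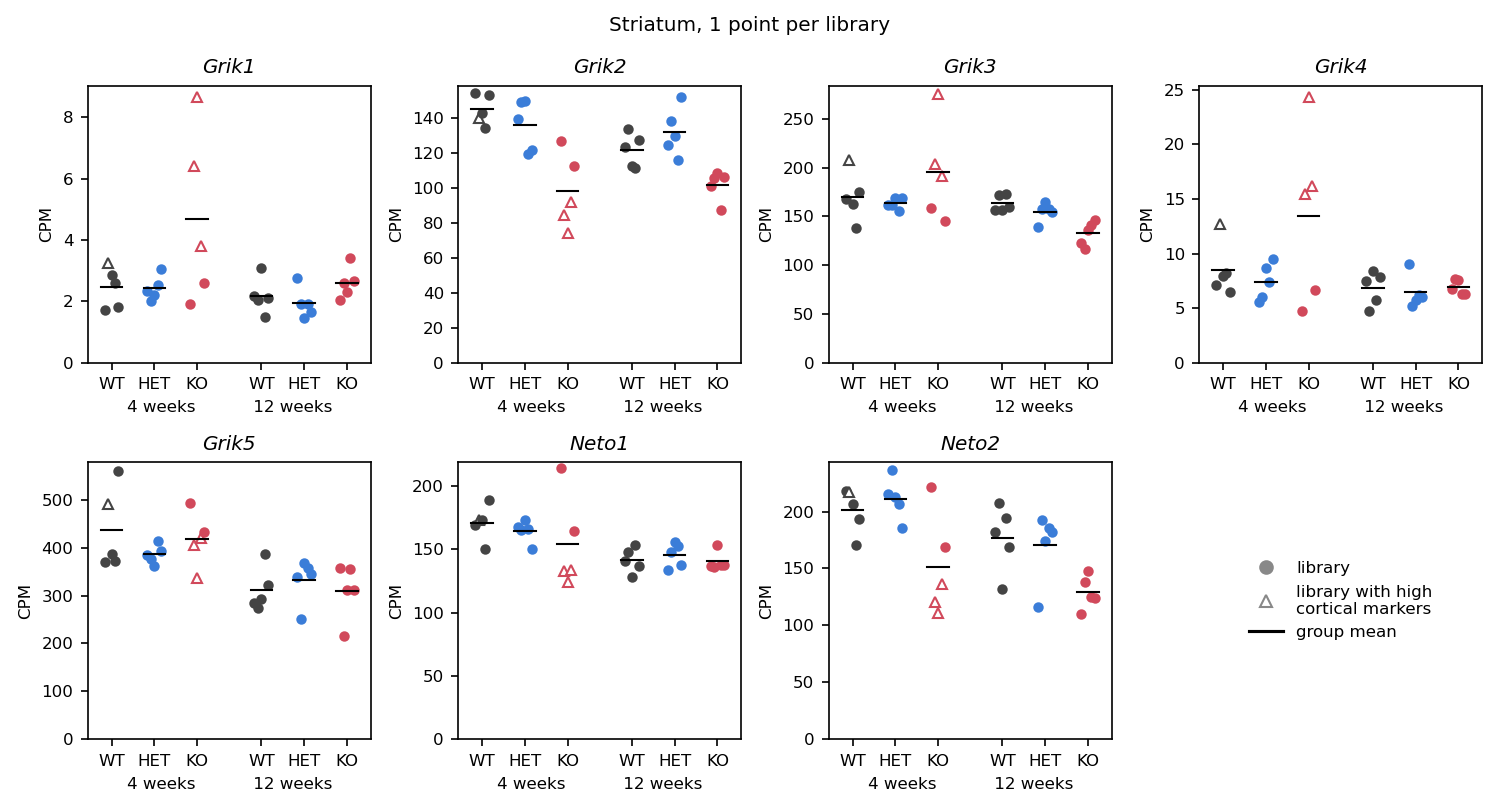
CPM of each gene in striatal libraries by genotype at 4 and 12 weeks, with 1 point per library and a bar at the group mean; open triangles mark the 4 libraries with high cortical markers. The KO libraries lie below all WT libraries for Grik2 at both ages and for Grik3 at 12 weeks.

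The other 4 genes were not called in striatum. Grik1 measured 1.92, 2.58, 3.81, 6.40 and 8.66 CPM in 4-week KO striatum and 1.72 to 3.24 in WT (0.93 ± 0.33, adjusted p = 0.143). Grik4 measured 4.72, 6.66, 15.5, 16.2 and 24.4 CPM in KO and 6.49 to 12.7 in WT (0.67 ± 0.34, 0.326). In both genes the 3 high KO values came from KO 51, KO 161 and KO 163, and the highest WT value from WT 92. Without those 4 libraries both values turned, to -0.02 for Grik1 and -0.40 for Grik4 (adjusted p = 0.978 and 0.377). At 12 weeks the log2 differences were 0.24 ± 0.22 for Grik1 and 0.00 ± 0.17 for Grik4. Grik5 averaged 418 ± 56.0 CPM over the 4-week KO libraries and 436 ± 85.8 over the WT libraries (SD, n = 5). Its log2 difference was -0.06 ± 0.12, and -0.02 ± 0.13 at 12 weeks. The Neto1 difference was -0.15 ± 0.12 at 4 weeks and -0.02 ± 0.05 at 12 weeks, where KO stood at 140 ± 7.41 and WT at 141 ± 9.79 CPM (n = 5). Leaving out KO 12, which held 214 CPM of Neto1 and 222 of Neto2, gave calls for Grik1 (1.12, adjusted p = 0.0334), Neto1 (-0.30, 0.0349) and Neto2 (-0.59, 0.0075) at 4 weeks. KO 51, KO 161 and KO 163, with high cortical markers, then make up most of the KO libraries. KO 12 had the highest sum of striatal projection neuron markers (16222 CPM). Without the libraries that stand apart the 4-week differences were 0.14 for Neto1 and -0.03 for Neto2.

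HET libraries differed from WT in 0 of 84 tests by edgeR, where 0.00521% of all tests were called. Those 10 tests were all of Akap11 itself, which was not called in HP (56.8% of WT, adjusted p = 0.273) or SN (61.8%, 0.548) at 4 weeks. Of the 84, 6 had an unadjusted p under 0.05. Over all genes tested in a set, that number ran from 263 of 15893 (12-week SSC) to 2551 of 15654 (4-week TH). DESeq2 called 0 of the 77 for which it gave an adjusted p. The log2 differences of the members by edgeR ran from -0.68 to 0.45, the former for Grik3 in 4-week TH (adjusted p = 0.247). In striatum the HET difference of Grik2 was -0.09 ± 0.12 at 4 weeks and 0.12 ± 0.08 at 12 weeks, that of Grik3 -0.05 ± 0.14 and -0.08 ± 0.06, and that of Neto2 0.08 ± 0.15 and -0.06 ± 0.13.

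KO was also compared with HET, which shares its KO libraries with the comparison against WT. In striatum Grik2 was called lower at both ages, by -0.48 ± 0.12 (log2, SE; adjusted p = 0.0361) at 4 weeks and -0.39 ± 0.08 (0.00978) at 12 weeks. Grik3 was called lower at 12 weeks by -0.23 ± 0.06 (0.0341). That is 1 of 7 members at 4 weeks, against 3.88% of genes (1.99% lower), and 2 of 7 at 12 weeks, against 4.79% (2.94% lower). In the other regions 0 of 70 were called, against 0.0106%, and 9 had an unadjusted p under 0.05. Over all genes tested in a set of those regions, that number ran from 344 of 16218 (4-week SN) to 2867 of 16429 (4-week HP). DESeq2 called Neto2 in 4-week HP (adjusted p = 0.0223), where it called 325 of 16663 genes. The 12-week Grik2 call held without each of the 10 libraries in turn (largest adjusted p = 0.0291). The 4-week Grik2 call was lost without any one of 7 libraries (up to 0.101, without HET 22), and the Grik3 call also without any one of 7 (up to 0.0944, without HET 3). The Neto2 differences of -0.48 ± 0.15 and -0.41 ± 0.13 missed the threshold (adjusted p = 0.0745 and 0.0823).

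The striatal KO effect was then tested directly against the mean of the KO effects in the other 5 regions. Grik2 differed at both ages. At 4 weeks its effect was -0.57 in striatum and -0.04 in the mean of the others, a difference of -0.52 ± 0.15 (log2, SE; adjusted p = 0.0335). At 12 weeks the effects were -0.27 and 0.06, a difference of -0.33 ± 0.08 (0.00826). Grik4 differed at 4 weeks by 0.83 ± 0.24 (0.0317), and without the 4-week libraries that stand apart the value was -0.27. Libraries of different regions share sample numbers, which this fit does not use. With the number as a block in limma-voom the Grik4 call was lost (0.62, adjusted p = 0.26), while Grik2 kept both (-0.55, 0.0414, and -0.33, 0.00369). By edgeR this gives 2 of 7 members at 4 weeks, against 3.52% of genes, and 1 of 7 at 12 weeks, against 3.11%. The 12-week Grik2 difference was lost without KO 4 (-0.28, adjusted p = 0.0576) and kept without any other library. At 4 weeks it was lost without KO 161, KO 163, KO 51, WT 142, WT 42 or WT 914 (up to 0.208), and it was -0.23 (0.453) without the libraries that stand apart. Grik3 and Neto2 at 12 weeks did not pass this test (-0.12 ± 0.21, adjusted p = 0.931, and -0.36 ± 0.16, 0.307). Their striatal change is therefore not shown to differ from that of the other regions.

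Outside striatum the larger uncalled values lay in thalamus. At 4 weeks Neto2 measured 13.6 to 29.1 CPM in KO and 18.3 to 50.8 in WT (-0.94 ± 0.28, adjusted p = 0.232), and Grik3 25 to 34.8 in KO and 20.7 to 60.1 in WT (-0.76 ± 0.27, 0.274). Both genes were lowest among the WT libraries in WT 142. That library also had the lowest score of 8 inhibitory interneuron markers among WT (2.84; the score is the mean log2(CPM + 1)), against 4.56 to 5.27 in the other 5 WT libraries and 2.66 to 3.25 in KO. The part of these markers in the thalamic values was not tested. The Grik3 difference was -0.66 ± 0.29 in TH at 12 weeks (0.637) and -0.58 ± 0.35 in PFC at 4 weeks (0.409). The HET difference from WT in TH at 4 weeks was -0.68 ± 0.27 for Grik3 and -0.49 ± 0.28 for Neto2, neither called. KO differed from HET there by -0.08 ± 0.28 and -0.45 ± 0.29, also uncalled. The thalamic values are therefore not shown to be particular to KO. They include the WT libraries with low thalamic marker scores, and values without those libraries are not given here.

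The KO effect was not shown to change with age. The difference between 12 and 4 weeks was called by edgeR in 0 of 42 tests of members, and in 0% of all tests of genes in the 6 regions. One test had an unadjusted p under 0.05, Grik3 in striatum (-0.52 ± 0.16 on the log2 scale, adjusted p = 0.522), and DESeq2 called 0 of the 42. For Grik2 in striatum the difference was 0.29 ± 0.15 (0.752).

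The 2 ages were compared within each region and genotype. Libraries of the 2 ages carry different sample numbers and no label gives a batch, so age and the round of collection cannot be told apart. In WT 9 of 42 tests were called (8 lower and 1 higher at 12 weeks), or a share near the 20.6% of all tests of genes (11.4% called lower). In HET 7 of 42 were called, against 15.4%, and in KO 8 of 42, against 18.9%. Grik5 was the gene called most often. It was called lower at 12 weeks in all 6 regions of WT, in 3 of 6 in HET and in 4 of 6 in KO. Its estimate was below 0 in the 18 tests. The share of all genes called lower in all 6 regions is not given here.

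**Figure D5:**
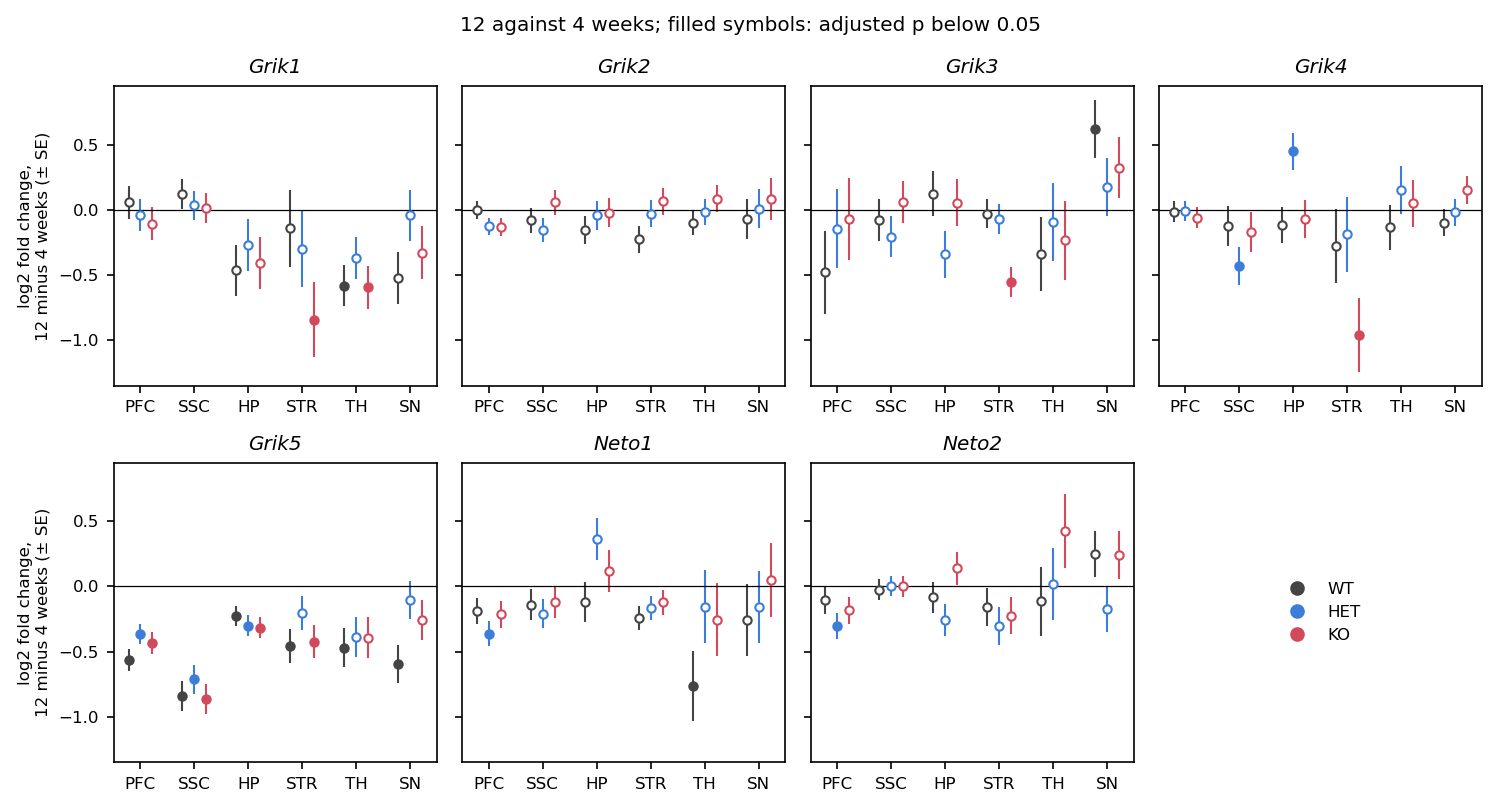
Log2 fold change of 12 against 4 weeks with its standard error for each gene by region in WT, HET and KO. Filled symbols passed an adjusted p of 0.05; Grik5 lies below 0 in all regions and genotypes, between -0.86 and -0.10.

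Grik5 in SSC measured 288, 289, 303, 410 and 416 CPM at 4 weeks and 141, 183, 199, 208 and 217 at 12 weeks in WT. The ages did not overlap. The mean went from 341 ± 66.1 to 189 ± 30.1 CPM (SD, n = 5), a log2 change of -0.84 ± 0.11 (SE; adjusted p = 3.01e-06). HET and KO changed there by -0.71 ± 0.11 (1.92e-05) and -0.86 ± 0.11 (2.65e-06). In PFC the WT libraries measured 310 to 410 CPM at 4 weeks and 223 to 243 at 12 weeks, again without overlap (-0.57 ± 0.08, 2.59e-05), and HET (-0.36, 0.00237) and KO (-0.44, 0.000814) were also called. In HP WT went from 280 ± 34.9 (n = 6) to 240 ± 12.6 CPM (n = 5; -0.23 ± 0.08, 0.0356), with overlap. That call was lost without any one of 8 of the 11 libraries (up to 0.115, without WT 92), while HET (-0.30, 0.00925) and KO (-0.32, 0.00527) were called.

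In striatum Grik5 went from 436 ± 85.8 to 312 ± 45.3 CPM in WT (SD, n = 5; -0.45 ± 0.13, adjusted p = 0.0141) and was not called without the 4-week library WT 914 (-0.35, 0.0703). KO changed by -0.42 ± 0.13 (0.0168), which was lost without the 4-week KO 12 (0.0505) or the 12-week KO 2 (0.0714), and the HET difference was -0.21 ± 0.13 (0.31). In SN WT changed by -0.60 ± 0.15 (0.00522). There the library labelled WT 92 held 263 CPM against 110 to 159 in the others, and without the SN libraries that stand apart the change was -0.39 (0.00217). The SN differences in HET and KO were -0.10 ± 0.15 and -0.26 ± 0.15. In TH WT changed by -0.47 ± 0.15 (0.0238). WT 913 held 208 CPM against 96.9 to 117 in the others, and without the TH libraries that stand apart the change was -0.27 (0.152). The TH call was also lost without the 12-week WT 1 (0.0622) or WT 2 (0.0708). The TH differences in HET and KO were -0.39 ± 0.16 each (0.0913 and 0.0706).

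Grik1 was lower at 12 weeks in TH, at 31.3 ± 8.83 (n = 6) and 20.9 ± 4.58 CPM (n = 5) in WT (SD; -0.58 ± 0.16, adjusted p = 0.0086). In KO it went from 40.3 ± 3.28 to 26.4 ± 1.77 CPM (n = 5) with no overlap of the ages (-0.59 ± 0.16, 0.00984), and both calls held without the libraries that stand apart. The calls of Neto1 in WT TH (-0.77 ± 0.27, 0.0388) and Grik3 in WT SN (0.62 ± 0.22, 0.0491) did not hold there. Neto1 measured 35.8 CPM in the 4-week TH library WT 913 and 7.85 to 15.1 in the others, and without the libraries that stand apart its change was -0.05. The Grik3 change was then 0.30 (0.0703). Each of these 2 calls was also lost without any one of 6 or 7 of the 11 libraries. The calls of Grik1, Grik3 and Grik4 in KO striatum (-0.84, -0.55 and -0.96) rest on the 4-week KO libraries with high cortical markers. Without them the values were 0.22, -0.19 and 0.29, and none was called. In HET single calls were made for Grik4 in HP (0.45) and SSC (-0.43) and for Neto1 and Neto2 in PFC (-0.36 and -0.30). Each of those 4 was lost without at least 1 library.

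Genes around the receptor were counted from a list of 36 partners and regulators (scaffolds, motors, kinases, phosphatases, ubiquitin and SUMO factors and RNA-editing enzymes). In KO against WT striatum 3 of 36 were called at each age, where 3.35% of all genes were called at 4 weeks and 4.42% at 12 weeks. At 4 weeks 2 were higher and 1 lower, and the median log2 change of the list was -0.05, against 0.00 over all genes. At 12 weeks 1 was higher and 2 lower, with medians of 0.02 and 0.01. Adarb1, whose product edits RNA including that of Grik2, was higher at both ages (0.31 ± 0.07, adjusted p = 0.025, and 0.19 ± 0.05, 0.0385). The 4-week call was lost without KO 51, WT 142, WT 42 or WT 913 (up to 0.0723), and the 12-week call without any one of 7 libraries (up to 0.116, without WT 1). Myo5b, a motor of recycling endosomes, was lower at 4 weeks (-0.29 ± 0.05, 0.00528). Grip1, a PDZ scaffold, was higher at 4 weeks (0.27 ± 0.06, 0.0294), a call lost without KO 161, KO 51, WT 142, WT 42 or WT 914 (up to 0.0849) and with the cortical score as a covariate (0.0544). The 4-week fit includes the striatal libraries that stand apart, and values of Adarb1, Myo5b and Grip1 without those libraries are not given here. Camk2b, the beta subunit of CaMKII, and Ppp3ca, a catalytic subunit of calcineurin, were lower at 12 weeks (-0.36 ± 0.05, 0.000782, and -0.34 ± 0.07, 0.0123). Both calls held without each library in turn. Of the 13 AMPA, NMDA and delta receptor subunits 0 were called in striatum at either age, against the same shares of all genes, with median log2 changes of -0.08 and -0.04.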

How the data were processed

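The authors deposited a single table of expected counts (estimated counts that need not be whole) for 28338 gene symbols in 186 libraries. Per the labels' protocols, RNA from cryostat-dissected tissue entered a stranded mRNA kit. The submitters' processing notes name Salmon and mm10. The sources used here give neither the Salmon version nor its annotation. Of the deposited expected counts above 0, 77.9% were not whole, and all were rounded for testing. Positions come from GENCODE M21 on GRCm38.

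Libraries were grouped by their labels. For each comparison a quasi-likelihood model was fitted over all genes with edgeR 4.0.16 (R 4.3.3; TMM, filterByExpr, glmQLFTest), with p-values adjusted by Benjamini-Hochberg within the comparison. Genotypes were fitted within a region and age, ages within a region, and regions over the WT libraries of 1 age. The SE is the size of the log2 change divided by the square root of F. DESeq2 1.42.0 and limma 3.58.1 served as alternatives. The scripts were tested on simulated data. Among 390 replicate pairs chi-square over degrees of freedom was at least 8.36, so each library counted once. In 16 of the 4-week libraries at most 5.55% of values were whole, against at least 17.3% elsewhere, and this subset was a covariate in an alternative.

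The members and lists were chosen with earlier results of these data known. The genes named are the 7 members, the 3 genes most like each, the called genes of the partner list and Akap11.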

Additional observations from a re-analysis of the deposited data

Results flagged for a closer look

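Of 252 groups of 5 or 6 libraries (7 genes in 36 groups), 27 (10.7%) held a library whose gap to its nearest neighbour, as a share of the range of the group, was above Dixon's 95% limit. That limit is set to be passed in about 1 in 20 groups of independent, normally distributed values. The 7 genes share their libraries and no such count was made over all genes, so the share is not a result about these genes. Values are CPM. In 4-week libraries with unusual markers or Akap11, the SN library labelled WT 92 held 14.8 of Grik2 (33.4 to 40.9 in the others of its group) and 263 of Grik5 (110 to 159). The SN library KO 44 held 24.1 of Grik2 (33.8 to 37.1) and the STR library WT 92 held 12.7 of Grik4 (6.49 to 8.24). The TH library WT 913 held 208 of Grik5 (96.9 to 117) and 35.8 of Neto1 (7.85 to 15.1). Also at 4 weeks, Grik2 was 48.3 in HP WT 914 (58.0 to 62.7), Grik3 was 20.7 in TH WT 142 (48.9 to 60.1) and Grik4 was 65.3 in HP KO 932 (59.9 to 60.9). Grik5 was 432 in SSC KO 163 (316 to 346), Neto1 was 88.1 in PFC HET 941 (59.1 to 69.8) and 12.0 in TH HET 931 (9.62 to 9.95), and Neto2 was 29.1 in TH KO 163 (13.6 to 15.9).

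At 12 weeks the library HET 1 held 6.85 of Grik1 in PFC (9.99 to 11.3 in the others), 9.0 of Grik4 in STR (5.22 to 6.21), 116 of Neto2 in STR (174 to 193) and 41.0 of Neto2 in TH (15.8 to 22.8). HET 2 held 92.1 of Grik3 in SN (116 to 122), 156 of Grik5 in SSC (199 to 216) and 251 of Grik5 in STR (338 to 368). In SSC, WT 1 held 93.9 of Grik3 (110 to 114) and 45.7 of Neto1 (51.3 to 51.7), WT 2 held 83.6 of Neto2 (62.7 to 68.3) and KO 2 held 61.0 of Neto1 (48.4 to 51.4). Grik2 was 35.9 in SN WT 4 (31.4 to 32.6), and Neto1 was 47.1 in PFC WT 2 (57.7 to 61.3) and 154 in STR KO 3 (136 to 138).

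The KO effect differed between striatum and the other 5 regions by the edgeR test of that difference for Grik2 at 4 weeks (-0.52 on the log2 scale, adjusted p = 0.0335) and at 12 weeks (-0.33, 0.00826), and for Grik4 at 4 weeks (0.83, 0.0317).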

How the results depend on the processing

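Across 8 kinds of comparison, the count of called members was set beside each alternative. For KO against WT it was 3, and between 2 and 4 with relative log expression factors, no low-count filter, DESeq2, only the 2 genotypes in the fit, the library subset or cortical score as a covariate, or without the libraries that stand apart; leaving out each library in turn gave 2 to 6, with 6 without the 4-week STR library KO 12. HET against WT gave 0 throughout. For KO against HET it was 3, with 6 by DESeq2 and 1 with only the 2 genotypes, and 2 to 6 with each library left out. For the KO effect in striatum against the other regions it was 3, with 1 without the libraries that stand apart. It was 2 with the sample number as a block (limma-voom, Grik4 at 4 weeks lost) and 1 to 4 with each library left out. The age tests gave 24, and 22 to 25 with each library left out. The region tests gave 67 (66 to 70, and 70 with the sample number as a block) and the region pairs 167 (164 to 175, and 168). The tests of the KO effect between ages stayed at 0. Without the libraries that stand apart, the sign turned in 4-week striatum for Grik1 against WT (-0.021), HET (-0.11) and the other regions (-0.059), for Grik4 against HET (-0.39) and the other regions (-0.27), and for Neto1 against WT (0.14). In the same setting Grik3, Grik4 and Grik5 against WT (-0.09, -0.40 and 0.12), Grik3 and Neto1 against HET (-0.12 and 0.19), Neto2 against the other regions (0.30) and Grik1 and Grik3 in HET against WT (0.09 and 0.02) also turned, none of them called under any setting. The sign also turned for Grik1 and Grik4 between ages in KO striatum (0.22 and 0.29), and the cause was not tested. Of 289 genotype tests of members called under no setting, 126 took the other sign under at least 1. At 12 weeks KO and WT share replicate numbers, and same-numbered libraries deviated together (r over 0.1) in 21 of 30 pairs (r from -0.16 to 0.71) and in all pairs of 0 of the 6 regions. Over the pairs of all 3 genotypes, the mean r of same-numbered libraries ran from 0.15 (SN) to 0.41 (PFC). That of libraries with different numbers ran from -0.09 (TH) to -0.04 (SN), and in STR the means were 0.29 and -0.07. The main 12-week fits do not use the number. With the replicate block the KO against WT count was 4, the added call being Grik2 in 12-week striatum (-0.27, adjusted p = 0.00557). Where the block was run, HET against WT stayed at 0 and KO against HET at 3. Groups of 5 or 6 libraries limit what small changes could be seen; Grik1 and Grik4 in striatum had the fewest counts.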

Other observations

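After the mean of each group of region, age and genotype was taken out, the log2 levels of some members moved together over the 186 libraries. Pearson r was 0.61 for Grik2 and Neto1, 0.49 for Grik2 and Neto2, and 0.44 for Grik3 and Neto2. These values describe libraries that share dissection, depth and RNA preparation, and they include the 4-week libraries that stand apart.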
